A study of Bos taurus with 6 samples.

Results

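The miRNAs described here are bta-miR-103, bta-miR-107 and bta-miR-378, which are linked to the metabolism of sugars, fats and mitochondria. They were taken by name from the table of counts, where all 3 had counts among 706 miRNAs, 359 of which carry names of known Bos taurus miRNAs. The libraries came from small RNAs of serum extracellular vesicles (EVs), membrane-bound particles shed by cells into blood. Serum was drawn from 6 Holstein cows in mid lactation, 3 in each group, after 30 days of feeding. Control cows received a total mixed ration (TMR). For tested cows, whole cotton seed and soybean hull took the place of part of the alfalfa hay. All cows were female, kept in chambers at constant temperature and humidity, and each gave 1 library. The question was whether the tested diet changed the level of these miRNAs in serum EVs.

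A miRNA is a short RNA that represses mRNAs, mainly those whose untranslated end pairs with its seed, here bases 2 to 8 from the 5′ end. In mammals, miR-103 and miR-107 are near twins encoded inside genes for pantothenate kinases, the enzymes that start the synthesis of coenzyme A, and in mouse liver and fat they are known to lower insulin sensitivity. miR-378 is encoded inside PPARGC1B, a gene for a coactivator of mitochondrial energy genes, and is known for roles in mitochondrial metabolism and in the formation of fat cells.

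The listed sequences of the members and of bta-miR-378c, a relative with the same seed, are shown because a single base decides which name a read receives. Capitals mark the seed, and the letters are DNA letters as deposited, 5′ to 3′.
bta-miR-103: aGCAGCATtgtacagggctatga
bta-miR-107: aGCAGCATtgtacagggctatc
bta-miR-378: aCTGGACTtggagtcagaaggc
bta-miR-378c: aCTGGACTtggagtcagaagt

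With positions counted from the 5′ end of bta-miR-103, the listed bta-miR-107 sequence matches its first 21 bases, differs by G22C and ends 1 base earlier. A read of 21 bases or fewer from either miRNA therefore cannot be told apart from the other, and how such reads were counted is not given in the sources used here. Between bta-miR-378 and bta-miR-378c the first 20 bases are shared and the difference is G21T. The seed of bta-miR-103 and bta-miR-107, GCAGCAT, was found in no other of the 706 listed sequences, and an mRNA site pairing with it reads ATGCTGC. The seed of bta-miR-378, CTGGACT, was shared with bta-miR-378c alone, and the site pairing with it reads AGTCCAG. Over all libraries bta-miR-103 held 87.7% of the 10535 counts with the first seed, and bta-miR-378 held 99.4% of the 2325 counts with the second.

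The RefSeq gene table used for position belongs to assembly ARS-UCD2.0, a later one than the build of the reads. In it bta-miR-103 has a pair of hairpin genes. MIR103-1 lies within the span of PANK3 and MIR103-2 within that of PANK2. MIR107 lies within PANK1, so that each of the 3 hairpins sits in a different pantothenate kinase gene. MIR378-1 lies within PPARGC1B, and MIR378-2 within CALCR, the gene of the calcitonin receptor. The mature sequence of bta-miR-103, and that of bta-miR-378, is the same from either hairpin, so the counts do not say which gene it came from.

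Library totals ran from 1277693 to 2176002 counts, of which 1226928 to 2088249 were on known miRNAs. Levels are given as CPM, counts scaled to 1000000 known miRNA counts of the library, with a 95% exact binomial (Clopper-Pearson) interval where a single library is discussed. PCR copies a molecule into several reads, so these intervals cover counting error only. Tested cow 1 had the fewest counts and stood apart in blood cell miRNAs. The 3 red cell miRNAs bta-miR-451, bta-miR-144 and bta-miR-486 summed to 59608 CPM there, against 13468 to 28434 in the control cows and 8621 to 10840.2 in the other tested cows, and none of the 3 was at 0 in any library. Results of bta-miR-107, which rest on this cow, are therefore also given without it.

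The most abundant of the members was bta-miR-103. Control cows 1, 2 and 3 had 818, 829 and 960.1 CPM, and tested cows 1, 2 and 3 had 895, 877 and 793 CPM. The highest level belonged to a control cow and the lowest to a tested cow, and the groups overlapped. Group means were 869 ± 79.1 CPM for control and 855 ± 54.1 CPM for tested cows (SD, n = 3), a difference of -14.0 against this spread between cows (two-sided exact permutation test, p = 0.8). The difference turned to 31.6 CPM without control cow 3 and to 16.9 CPM without tested cow 3, and with CPM scaled by TMM, the trimmed mean of M-values, it was -49.4 (exact permutation test, p from 0.6 to 1). With 3 cows against 3 this test cannot give a p below 0.1. Among known miRNAs bta-miR-103 ranked 55 by mean level, and 49 to 61 in single libraries. Its neighbours in that order were bta-miR-342 at 862 ± 125 CPM and bta-miR-374b at 833 ± 163 CPM, beside bta-miR-103 at 862 ± 61.1 CPM (SD over 6 libraries). Picked as next in level, they lie close to it by choice, and no difference was tested.

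For bta-miR-378 the level was 141, 224 and 255 CPM in control cows 1, 2 and 3 and 234, 229.9 and 201 CPM in tested cows 1, 2 and 3. The lowest and the highest value both belonged to control cows, with the tested cows between them. Control cows averaged 206 ± 59.1 CPM and tested cows 221 ± 18.2 CPM (SD, n = 3), a difference of 15.1 (two-sided exact permutation test, p = 0.8). The low value of control cow 1 was beyond counting error, since its interval of 122 to 161 CPM did not reach that of any other library, the lowest of which began at 182 CPM. Without control cow 1, the difference turned to -17.9 CPM (p = 0.6 by the exact permutation test). The miRNA ranked 87 by mean level, between bta-miR-148b at 223 ± 90.2 CPM and bta-miR-345-5p at 199.7 ± 52.1 CPM (SD over 6 libraries), which were also picked as next in level.

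The least even of the members was bta-miR-107. It had 373, 301 and 149 counts in control cows 1, 2 and 3, and 1, 254 and 220 counts in tested cows 1, 2 and 3. In CPM, this was 243, 149.8 and 74.9 on the control diet, against 0.815, 135 and 105 on the tested diet. Tested cow 1 was thus nearly devoid of it, with an interval of 0.0206 to 4.54 CPM, while control cow 3, the next lowest, had an interval of 63.3 to 87.9 CPM. The other tested cows lay inside the range of the control cows. The mean was 156 ± 84.0 CPM for control and 80.4 ± 70.5 CPM for tested cows (SD, n = 3), a difference of -75.3 (two-sided exact permutation test, p = 0.4). Without tested cow 1, the difference was -35.5 CPM, and without control cow 1, the cow with the highest level, it was -31.9 CPM (p = 0.8 for each by the exact permutation test). Without control cow 3, in contrast, it was -116 CPM (p = 0.2 by the exact permutation test, the smallest that 3 against 2 allow). In serum EVs, fewer vesicles that carry a miRNA and fewer copies per vesicle cannot be told apart.

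**Figure D1:**
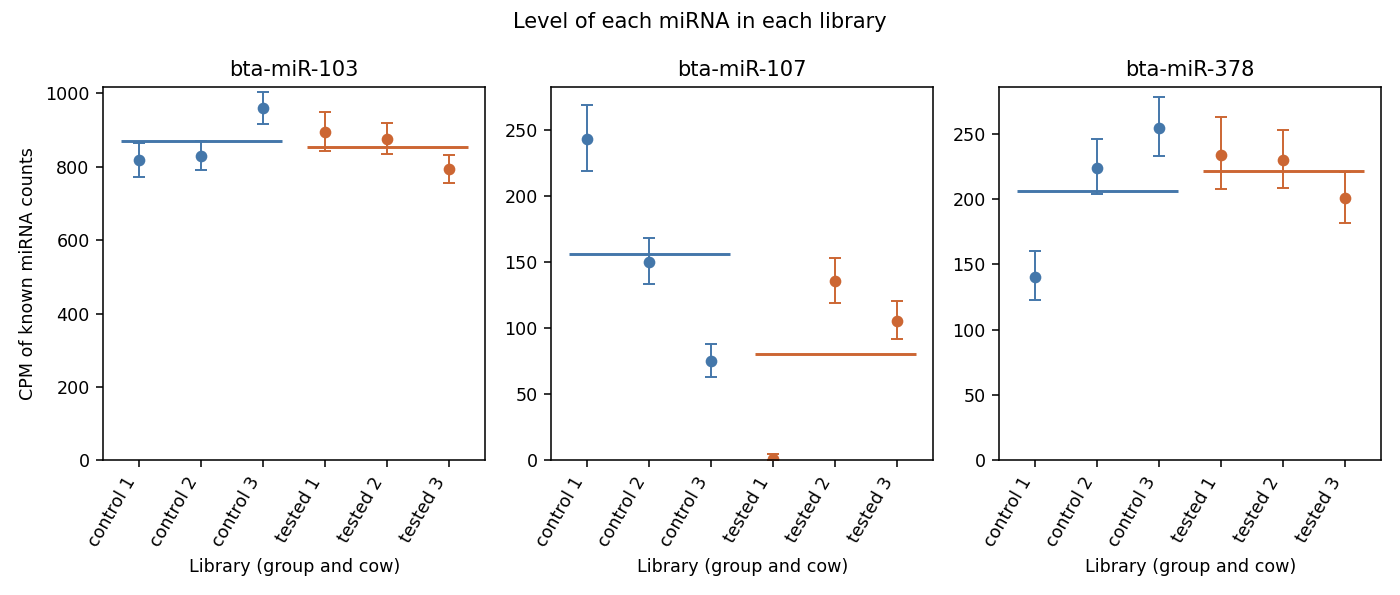
CPM of known miRNA counts (y axis, from 0, a scale per panel) of bta-miR-103, bta-miR-107 and bta-miR-378 in each library (x axis, control in blue and tested in orange). Points carry 95% exact binomial intervals and horizontal lines are group means. The panel of bta-miR-107 runs from 0.815 CPM in tested cow 1 to 243 in control cow 1, while the groups overlap for all 3 miRNAs.

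Among known miRNAs, 110 had at least 100 counts in 5 or more libraries, and bta-miR-107 was the only one of them at 3 counts or fewer in the remaining library. Just above this cut, bta-miR-20a had 6 counts in tested cow 1, against 114 to 261 in the other libraries. In tested cow 1 the sums of the liver, white blood cell and platelet and vessel lists were also high, though not every member was. The liver list (bta-miR-122, bta-miR-192, bta-miR-194) reached 2024 CPM against 1068 to 1589.9 CPM on the control diet and 1129.6 to 1180.4 CPM for the other tested cows. The white blood cell list reached 428 CPM in tested cow 1, against 194 to 364 CPM on the control diet, while the other tested cows had 78.1 and 233 CPM. In tested cow 1, 326 CPM of the sum were bta-miR-150. There, bta-miR-155 at 36.7 CPM was below every control cow (63.1 to 118 CPM), and bta-miR-142-5p at 65.2 CPM was below control cow 1 (95.6 CPM). The platelet and vessel list reached 329 CPM in tested cow 1, against 18.6 to 111 CPM on the control diet, while the other tested cows had 59.1 and 270.1 CPM. Of the 329 CPM, 183 were bta-miR-199a-3p, while bta-miR-223 at 11.4 CPM was below tested cow 3 at 45.5 CPM. In control cow 1, the cow with the second highest red cell sum, bta-miR-107 was at its highest. The part of these sums in the low bta-miR-107 of tested cow 1, or in its high level in control cow 1, was not tested.

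Because bta-miR-103 and bta-miR-107 share their first 21 bases, their counts were also summed. The share of bta-miR-107 in the counts of the pair was 22.9%, 15.3% and 7.23% in control cows 1, 2 and 3 and 0.0910%, 13.4% and 11.7% in tested cows 1, 2 and 3. For tested cow 1 this is 1 of 1099 counts, with an interval of 0.00230% to 0.506%. The sum of both was 1060.3, 979 and 1035 CPM on the control diet, against 896, 1012 and 899 CPM on the tested diet. It spanned 1.18-fold from lowest to highest. Most of the sum was bta-miR-103, which alone spanned 1.21-fold, so the steady sum does not say how the reads of the pair were divided in tested cow 1. On its own bta-miR-107 spanned 298-fold, and 3.24-fold without tested cow 1. The means of the sum were 1025 ± 41.5 and 936 ± 66.3 CPM (SD, n = 3), a difference of -89.3 with overlapping groups (two-sided exact permutation test, p = 0.2).

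A ratio of members within a library needs no scaling, and 3 such ratios were compared between the groups. The log2 ratio of bta-miR-107 to bta-miR-103 averaged -2.63 ± 0.975 for control and -5.24 ± 4.21 for tested cows (SD, n = 3, exact permutation test, p = 0.4). The difference of -2.60 came to -0.17 without tested cow 1, to -3.87 without tested cow 2 and to -3.77 without tested cow 3. From counts summed over each group, in which each cow weighs by its counts, it was -0.66. The log2 ratio of bta-miR-378 to bta-miR-107 was 0.52 ± 1.28 and 3.29 ± 4.23 (SD, n = 3, exact permutation test, p = 0.4). Here, too, the difference of 2.77 came to 0.33 without tested cow 1, and to 0.75 from counts summed over each group. In 5 of the 6 libraries bta-miR-378 had more counts than bta-miR-107, and control cow 1 had the opposite order with 216 against 373 counts, while bta-miR-103 was above both in all 6.

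The ratio of bta-miR-378 to bta-miR-103 was the steadiest. It was 0.172, 0.270 and 0.265 in control cows 1, 2 and 3 and 0.261, 0.262 and 0.253 in tested cows 1, 2 and 3. All libraries but control cow 1 lay within a narrow band. As log2 ratios the means were -2.11 ± 0.369 and -1.95 ± 0.029 (SD, n = 3), a difference of 0.16 (exact permutation test, p = 1). Without control cow 1, the difference was -0.049 and every tested cow was below the 2 control cows (p = 0.2 by the exact permutation test, the smallest that 3 against 2 allow), but the counting intervals of these 5 libraries all overlapped.

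**Figure D2:**
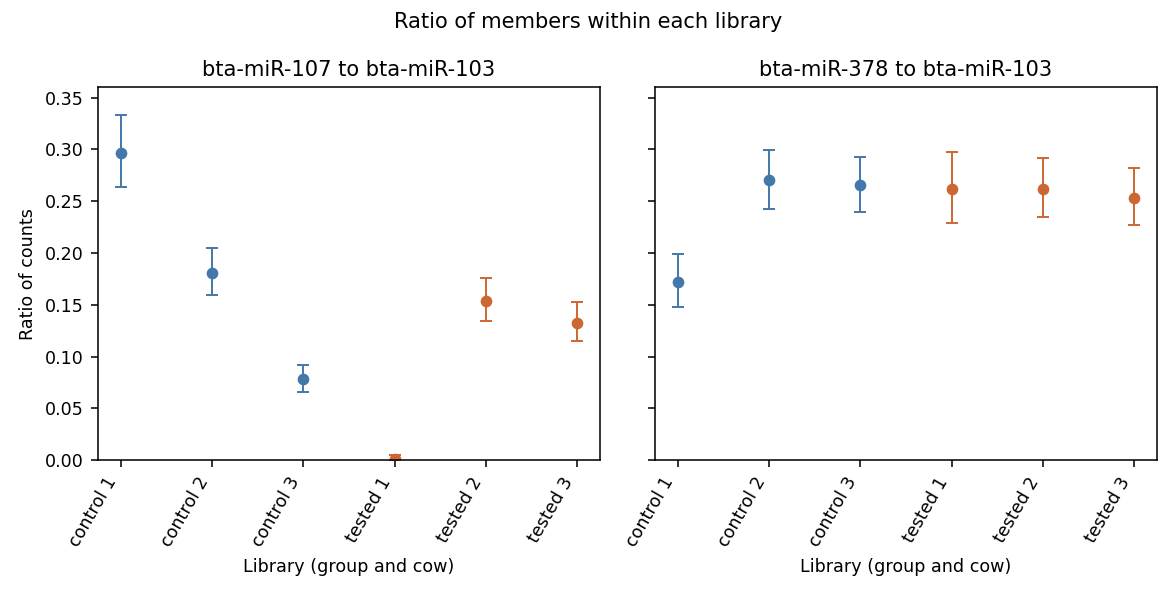
Ratio of the counts of bta-miR-107 to bta-miR-103 (left) and of bta-miR-378 to bta-miR-103 (right) on the y axis, from 0, for each library on the x axis (control in blue, tested in orange), with intervals converted from 95% exact binomial intervals. On the left tested cow 1 lies near 0 and control cow 1 at 0.297, and on the right 5 libraries lie between 0.253 and 0.270 with control cow 1 at 0.172.

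The spread between cows was set beside that of other known miRNAs as the SD of the log2 level within groups. For 125 known miRNAs with a count in every library and at least 100 counts on average, the median SD was 0.34 and the range 0.058 to 3.00. At 0.11, bta-miR-103 was in place 116 counted from the most variable. With 0.33, bta-miR-378 was in place 66, near the median. The highest SD of the 125 was that of bta-miR-107, which rests on its 1 count in tested cow 1, followed by bta-miR-22-5p at 2.51. A miRNA absent from any library was left out of the 125, so the order does not cover such miRNAs. Without tested cow 1, a setting chosen after the values were seen, the SD of bta-miR-107 was 0.71 in place 24. The coefficient of variation over 6 libraries was 7.09% for bta-miR-103, where counting error alone gives 2.59%. It was 18.7% against 5.20% for bta-miR-378 and 68.4% against 7.00% for bta-miR-107, which came to 44.8% without tested cow 1. With 1 library per cow, differences between cows and between library preparations cannot be told apart.

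**Figure D3:**
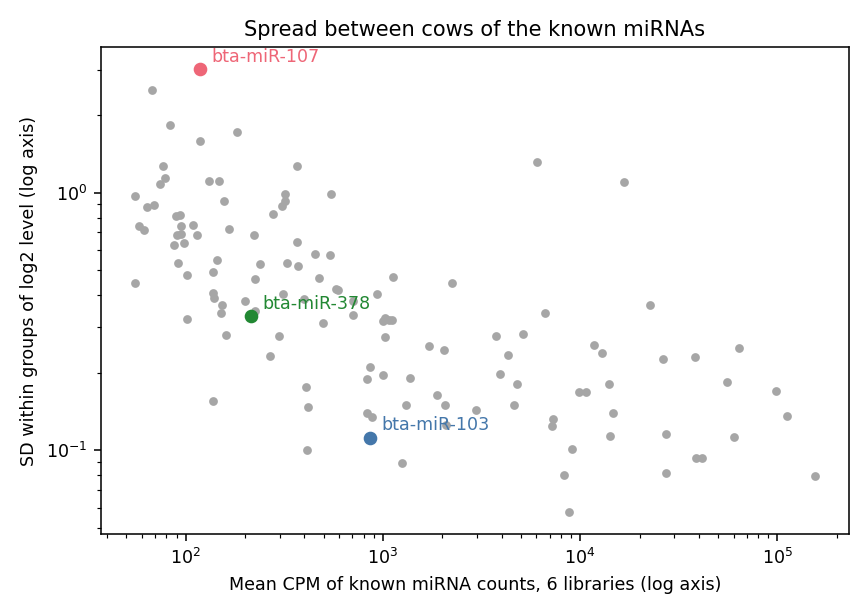
SD within groups of the log2 level (y axis, log axis) against the mean CPM of known miRNA counts over 6 libraries (x axis, log axis) for 125 known miRNAs (grey points). The points of bta-miR-107 at 3.00, bta-miR-378 at 0.33 and bta-miR-103 at 0.11 are coloured, and bta-miR-107 is the highest point.

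The change between the groups was also tested by the quasi-likelihood test in edgeR, which was run on all 623 miRNAs with at least 10 counts in sum, and in which a positive log2 fold change means higher in the tested group. To pass, a miRNA needed both an unadjusted p under 0.05 and a log2 fold change beyond 1 in either direction. None of the 3 members passed, with 0 of 3 also in DESeq2 and in limma, and 0 of 3 at an unadjusted p below 0.05 in any of these tools. Over all 623 miRNAs edgeR passed 20, or 3.21%, with 2.09% higher and 1.12% lower in the tested group, and 4.65% had an unadjusted p below 0.05. By the same threshold DESeq2 passed 4.17% and limma 2.41%. For bta-miR-103 the log2 fold change was -0.085 (standard error 0.310, 95% interval -0.76 to 0.59, adjusted p = 0.979 from edgeR), so the interval lies inside 1 on either side of 0. For bta-miR-378 it was 0.030 (standard error 0.501, 95% interval -1.05 to 1.11, adjusted p = 0.994 from edgeR). Its sign turned with DESeq2, with RLE factors in edgeR and without the filter on low counts. For bta-miR-107 it was -0.97 (standard error 1.07, 95% interval -3.28 to 1.34, adjusted p = 0.823 from edgeR), an interval too wide to tell a fall beyond the threshold from no change. Without tested cow 1 it was -0.39, without control cow 1 it was -0.55, and without tested cow 2 it was -1.68, none of which passed. By limma on log2(CPM + 1), it was -2.29 (unadjusted p of 0.105). With bta-miR-103 and bta-miR-107 summed into 1 feature the log2 fold change was -0.19 (standard error 0.293, 95% interval -0.82 to 0.45, adjusted p = 0.885 from edgeR). In the share of known counts no member had groups without overlap, where 8.01% of the 312 known miRNAs tested did.

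The miRNAs of the miR-15 and miR-16 group, known for repressing cell cycle genes, have the seed AGCAGCA, whose letters are also the first 7 bases of bta-miR-103 and bta-miR-107, starting 1 base before the seed of these. The first 6 of them, AGCAGC, begin at base 1 of bta-miR-103 and bta-miR-107 and at base 2 of 5 relatives, and 2.23% of the 359 known sequences hold these letters anywhere. These sequences are shown for bta-miR-16a and bta-miR-15b with the seed in capitals.
bta-miR-16a: tAGCAGCAcgtaaatattggtg
bta-miR-15b: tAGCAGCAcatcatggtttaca

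Together the 5 relatives summed to 185 to 292 CPM on the control diet, against 142 to 202 CPM on the tested diet, well under the sum of bta-miR-103 and bta-miR-107 in every library. In edgeR, 0 of the 4 tested relatives passed or had an unadjusted p below 0.05, as in DESeq2 and limma, with log2 fold changes between -1.34 (bta-miR-15b) and 4.20 (bta-miR-195) and a median of -0.26, beside a median of 0.071 over all 623 miRNAs. The counts of bta-miR-195 were 1, 1 and 0 on the control diet, against 29, 2 and 0 on the tested diet, so its value rests on tested cow 1, without which its 4 counts are too few to be tested. The counts of bta-miR-15b were 111, 101 and 72 on the control diet, against 7, 24 and 101 on the tested diet, lowest in tested cow 1. For bta-miR-16a, tested cow 1 had 48 counts where the other libraries had 125 to 252, and its log2 fold change of -0.24 turned to 0.11 without this cow. In contrast, bta-miR-16b was lowest in tested cow 3, with 136, 144 and 95 counts on the control diet, against 88, 153 and 40 on the tested diet. Another 3 of the 8 relatives in the list were not analysed here.

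The relatives of bta-miR-378 were scarce. The counts of bta-miR-378c were 1, 13 and 0 on the control diet, against 0 in every tested cow, so that 13 of its 14 counts came from control cow 2. In edgeR it did not pass (unadjusted p of 0.0859, adjusted p = 0.448). A single count of bta-miR-378d was found, in control cow 3, and bta-miR-378b was not analysed here.

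A list of 16 miRNAs linked to lipid and glucose metabolism was read beside the members, of which 12 had counts and were tested. By edgeR 0 of the 12 passed or had an unadjusted p below 0.05, and the same was found with DESeq2 and limma. Their log2 fold changes ran from -2.14 to 7.15 with a median of 0.037. The highest was that of bta-miR-130a, whose 37 counts all came from tested cow 1, at least 6.09-fold higher in the mean level of the tested group when each control library is set to a floor of 3 counts, and without that cow no count of it is left. Of the abundant members of the list, bta-miR-148a, known from milk and mammary gland, was at -0.26 on the log2 scale (standard error 0.141, adjusted p of edgeR = 0.448). For bta-miR-375, known for restraining insulin release in pancreatic islets, this value was -0.41 (standard error 0.221, adjusted p of edgeR = 0.448). Without tested cow 1 it was -0.55 (unadjusted p of 0.0434, adjusted p of edgeR = 0.596), which did not pass either. For bta-miR-143, known from smooth muscle and fat, this value was 0.64 (standard error 0.407, adjusted p of edgeR = 0.544). The level of the liver miRNA bta-miR-122 averaged 299 ± 146 CPM for control and 316 ± 246 CPM for tested cows (SD, n = 3), and its log2 fold change was 0.059. The tested cows had 598, 200.1 and 149.9 CPM, and without tested cow 1 the log2 fold change turned to -0.79 (adjusted p of edgeR = 0.596). The miRNAs of the bta-miR-29 group, known for repressing collagen genes, had log2 fold changes of 0.26 for bta-miR-29a, 0.015 for bta-miR-29b and -0.50 for bta-miR-29c.

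**Figure D4:**
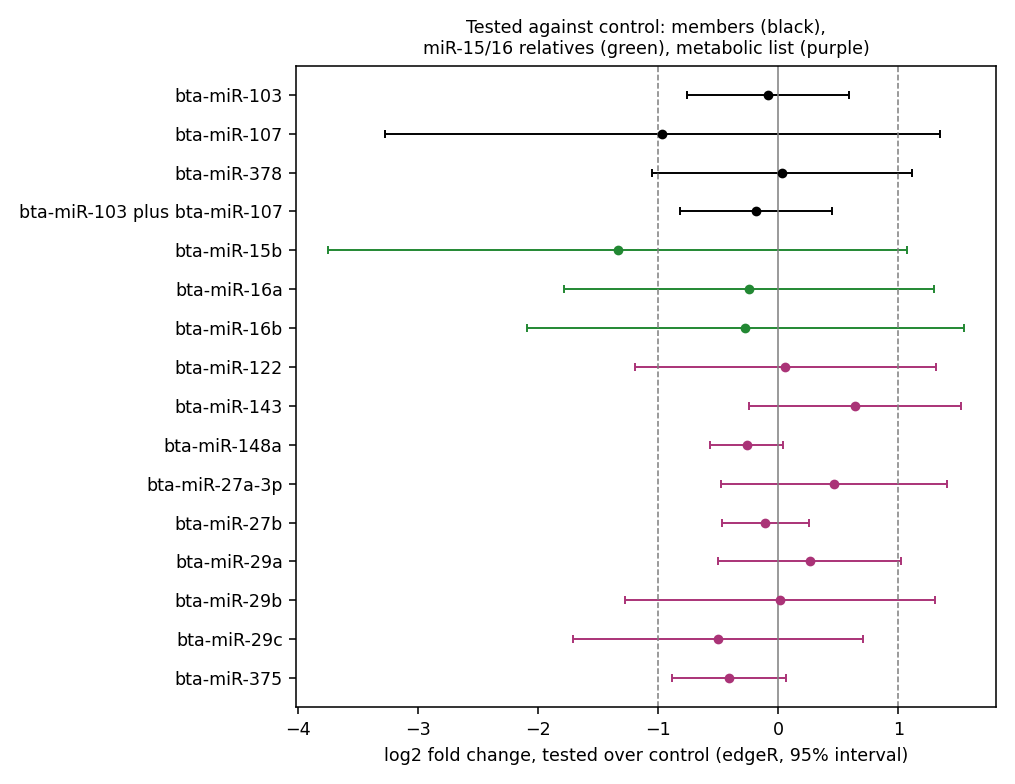
Log2 fold change of tested over control with its 95% interval from edgeR (x axis) for the members and the sum of bta-miR-103 and bta-miR-107 (black), miR-15 and miR-16 relatives (green) and the metabolic list (purple), for miRNAs with a standard error under 1.5. Dashed lines mark the threshold of 1 on either side of 0, every interval includes 0, and that of bta-miR-103 runs from -0.76 to 0.59.

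The known miRNAs with the pattern most like that of each member were found among 124 others by the root mean square difference of log2 level over the 6 libraries, each centred on its own mean. This is a description, and the libraries share their totals. For bta-miR-103 they were bta-miR-98 at 0.063, bta-let-7c at 0.077 and bta-let-7f at 0.087. For bta-miR-378 they were bta-let-7c at 0.20, bta-let-7b at 0.21 and bta-miR-98 at 0.23, with bta-miR-103 next in order. For bta-miR-107 none was close. The nearest was bta-miR-20a at 1.36, with 114, 171 and 261 counts on the control diet, against 6, 190 and 222 counts on the tested diet, followed by bta-miR-17-5p at 2.16 and bta-miR-127 at 2.27. In CPM, bta-miR-20a and bta-miR-17-5p were lowest in tested cow 1, at 4.89 and 17.9, while bta-miR-127 was lowest in control cow 3, at 21.6 against 26.1 in tested cow 1. Low values in tested cow 1 follow in part from the choice, since the pattern of bta-miR-107 is set mostly by that cow. Although it shares a seed with bta-miR-107, bta-miR-103 was in place 61 of the 124 by likeness to it.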

How the data were processed

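Small RNAs of serum EVs from 6 cows were sequenced, 1 library per cow. The submitters' processing notes name cutadapt 1.14, Bowtie and build ARS-UCD1.2, and the paper's methods name miRBase for known miRNAs and miRDeep2 for predicted ones. The authors deposited whole-number counts per miRNA without normalization, and the counting tool is not given in the sources used here. The authors also deposited RPM values, each equal to the count divided by the clean reads of its library, which numbered 11048676 to 24187264. The authors' fold changes and p-values in that table, and their list of differently expressed miRNAs, were not used.

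The counts were tested with edgeR 4.0.16 (TMM, estimateDisp, glmQLFit, glmQLFTest) in R 4.3.3, and p-values were adjusted by Benjamini and Hochberg over all 623 miRNAs with at least 10 counts in sum, 312 of them known. Levels and ratios were compared by exact permutation tests in Python 3.11.15 (SciPy 1.17.1, pandas 2.3.3, NumPy 2.4.6; plots by Matplotlib 3.10.9). DESeq2 1.42.0, limma 3.58.1 on log2(CPM + 1), other scalings and filters, the summed pair and leaving out each library were the alternatives. Each tool was tested on simulated data. The miRNAs named are the members, the miR-15 and miR-16, miR-378 and metabolic lists, neighbours in level and the 3 most alike patterns, and markers of red cells, platelets and vessels, white blood cells, liver, muscle and epithelium. The members and lists were chosen with earlier results of these data known. No pair of libraries had the same counts for all miRNAs. The depth was 1226928 to 2088249 known miRNA counts per library, so a floor of 3 counts is 1.44 to 2.45 CPM.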

Additional observations from a re-analysis of the deposited data

How the results depend on the processing

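No member passed the threshold under any alternative. The log2 fold change of bta-miR-103 ran from -0.16 to -0.023 over alternatives with all cows, with -0.19 when summed with bta-miR-107, and from -0.17 to 0.061 with a cow left out, turning positive without control cow 3 or tested cow 3. That of bta-miR-107 ran from -2.29 (limma) to -0.19 (summed with bta-miR-103), and from -1.68 to -0.39 with a cow left out. That of bta-miR-378 was -0.045 with DESeq2, -0.044 with RLE factors and -0.0032 without the filter, and ran from -0.22 to 0.28 with a cow left out, negative when control cow 1 or either of tested cows 1 and 2 was left out. In levels, the difference of bta-miR-103 ran from -39.6 to 31.6 CPM with a cow left out, positive without control cow 3 or tested cow 3. That of bta-miR-378 ran from -17.9 to 39.2 CPM, negative without control cow 1. In the deposited RPM values the differences were -36.7 for bta-miR-103, -11.0 for bta-miR-107, -7.72 for bta-miR-378 and -47.6 for the summed pair (exact permutation test, p = 0.3, 0.2, 0.7 and 0.3). The difference in the log2 ratio of bta-miR-378 to bta-miR-103 ran from -0.049 (without control cow 1) to 0.28 with a cow left out. The cause of these turns was not tested. The count of all miRNAs past the threshold was 20, with 13 under filterByExpr, 6 with known miRNAs only (fewer miRNAs tested) and 12 with the replicate block. Nothing in the labels ties cows of the same number, and their deviations from the group means did not go together (correlations of -0.058, -0.048 and -0.019 over 623 miRNAs). No cow correlated best with its own number. With the block, bta-miR-107 was at -1.45 (unadjusted p of 0.165 from edgeR).

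Relative to the level, counting error is widest for bta-miR-107 in tested cow 1, and the spread between 3 cows per group limits every comparison. The p-values set the difference between the groups against the variation between libraries, which holds that of cows and of library preparation alike. Those of edgeR also draw on the spread of all miRNAs tested.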

Other observations

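Of the marker lists, edgeR passed 1 of 4 platelet and vessel miRNAs, bta-miR-199a-3p, where DESeq2 passed 2 and limma 0. Over all 623 miRNAs these tools passed 3.21%, 4.17% and 2.41%. In edgeR, 0 of the 3 tested red cell, 0 of 3 white blood cell, 0 of 3 liver, 0 of 3 muscle and 0 of 5 epithelial miRNAs passed, as in DESeq2 and limma. An unadjusted p below 0.05 was found with edgeR in these 5 lists for 1 epithelial miRNA, bta-miR-141. Without tested cow 1, a setting chosen after the values were seen, bta-miR-199a-3p no longer passed (log2 fold change of 1.46 in place of 2.66). In this setting 17 of all miRNAs tested passed, among them 2 of the 3 red cell miRNAs, lower in the tested group. These were bta-miR-451 at -1.08 in place of 0.58 and bta-miR-486 at -1.01 in place of 0.35 (adjusted p of edgeR = 0.333 and 0.0844). The other red cell miRNA, bta-miR-144 at -1.19, did not pass (unadjusted p of 0.178 from edgeR). The epithelial list summed to 74363 to 88903 CPM in the control cows and 87861 to 93929.9 in the tested cows, and the muscle list to 133 to 158 and 152 to 178 CPM, in which bta-miR-133a was at 0 in 5 libraries. Without tested cow 1, the miRNAs most like bta-miR-107 were bta-miR-10a at a root mean square difference of 0.26, bta-miR-122 at 0.28 and bta-miR-150 at 0.30 over 5 libraries, and bta-miR-103 was in place 66. In that setting the nearest to bta-miR-378 was bta-miR-181b at 0.11 and the nearest to bta-miR-103 was bta-let-7f at 0.066. As a share of clean reads, known miRNA counts made up 8.50% of tested cow 1 and 8.63% of tested cow 3, against 10.8% to 18.0% in the other libraries, and on that scale bta-miR-103 ran from 68.5 RPM in tested cow 3 to 173 RPM in control cow 3.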
